A study of Homo sapiens with 15 samples.

Results

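Muscle and neuron cultures of HUES9, an established human embryonic stem cell line, were compared to see how the transcriptomes of both derivatives of neuromesodermal progenitors differ within a single line. The comparison used 4 of the 15 libraries of the series, chosen by their labels: skeletal muscle at day 50 and at day 40 of a skeletal muscle induction, set against ventral and dorsal neurons from a neural induction. The labels give all 4 as wild type (WT), give no day for the neurons and do not say whether cultures were independent. Values are the deposited FPKM, in which the fragments counted for a gene are divided by its transcript length and by the mapped fragments of the library. Of 17999 genes in the deposited table, 13186 reached 1 FPKM in at least 1 of the 4 libraries and were tested. The highest of the 4 values was 1.00 for TMSB15B and DNAH11, just inside that limit, and 0.997 for ZNF546 and 0.996 for GPR12, just outside it. Both muscle days served as the replicates of muscle and both neuron types as those of neurons, so the spread holds day and neuron type as well as culture, and a p-value measures a difference against that spread. Neurons of H1, another established human embryonic stem cell line, are given beside the HUES9 values, since the labels give no H1 muscle.

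Neuromesodermal progenitors are cells of the tail end of the embryo that give rise to spinal cord and to paraxial mesoderm, the tissue that forms the somites and from them skeletal muscle. Muscle cells exit the cell cycle under the MYOD family of basic helix-loop-helix factors, fuse into multinucleate fibres and assemble sarcomeres, in which myosin thick filaments pull on actin thin filaments between Z-discs. Neurons build axons and dendrites on a scaffold of microtubules and neurofilaments and release transmitter from synaptic vesicles.

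Estimated depth differed little between the 4 libraries, at 0.963 to 1.007 of the mean of the libraries, summed FPKM were 290399 to 305957, and 11405 to 11765 genes reached 1 FPKM. The 10 most abundant genes took 9.99% and 11.9% of the summed FPKM in muscle at days 50 and 40, against 5.65% and 6.0% in ventral and dorsal neurons. Pearson's r of log2(FPKM + 1) across the 13186 genes, which are not independent replicates, was 0.982 between the muscle days, 0.913 between the neuron types and 0.598 to 0.633 between a muscle and a neuron library. limma called 5483 genes (41.6%) at an adjusted p under 0.05, of which 1774 were higher in muscle (13.5%) and 3709 lower (28.1%). The median difference over all genes, muscle minus neurons, was -0.38 on the log2 scale. When libraries were scaled by median-ratio size factors that median was -0.02, and 4503 genes were called (34.1%), 2520 higher in muscle (19.1%) and 1983 lower (15%). The higher share of the calls was therefore 56.0% with size factors and 32.4% for the values as listed. 1772 genes were called higher and 1983 lower under both scalings, and 0 were called in opposite directions. Without the muscle library of day 40, leaving 1 muscle library, limma called 0 genes (4030 had an unadjusted p under 0.05, and the smallest adjusted p was 0.0523), and without that of day 50 it called 262. The 43 gene lists held 697 genes, of which 692 were in the table and 618 were tested. Counts within a list are read against these shares of all genes, the lists being described and not tested. Many members passed the limit of 1 FPKM only through the state in which they were high, so a count over tested members is not support for its direction. Differences are given for the values as listed, beside that median of -0.38, and calls that size factors changed are named. 9942 genes reached 1 FPKM in all 4 libraries, 811 in both muscle libraries and neither neuron library, and 882 in both neuron libraries and neither muscle library.

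Markers of both cell types went in the direction of the labels. They were chosen with earlier results of these data known, so their counts describe the libraries and are not a test of the labels. All 8 muscle markers were higher in muscle (MYLPF, ACTC1, MYOG, MYH3, TTN, CKM, ACTA1 and TNNT1), with summed levels of 11597 and 8076 FPKM in muscle at days 50 and 40, against 10.3 and 6.50 FPKM in ventral and dorsal neurons. All 8 neuron markers were lower in muscle (STMN2, INA, TUBB3, ELAVL3, ELAVL4, SYT1, SNAP25 and DCX), at 84.9 and 57.5 FPKM in muscle against 1910 and 1552 FPKM in neurons. Of the muscle marker sum, ACTC1 and MYLPF made up the greater part, and most of the neuron marker sum in muscle was DCX. All 6 connective tissue markers (COL3A1, COL1A1, COL1A2, DCN, LUM and PDGFRA) were also higher in muscle, at 11313 and 18318 FPKM against 9.31 and 9.004 FPKM in neurons. COL1A1, COL1A2 and COL3A1 made up the greater part of the connective tissue sum in muscle. In the libraries labelled muscle, the sum of these 6 markers was thus similar to that of the 8 muscle markers at day 50 and above it at day 40. Both sums depend on which genes were chosen, so they do not compare all connective tissue genes with all muscle genes. In bulk RNA, more cells of a type and more RNA per cell cannot be told apart.

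**Figure D1:**
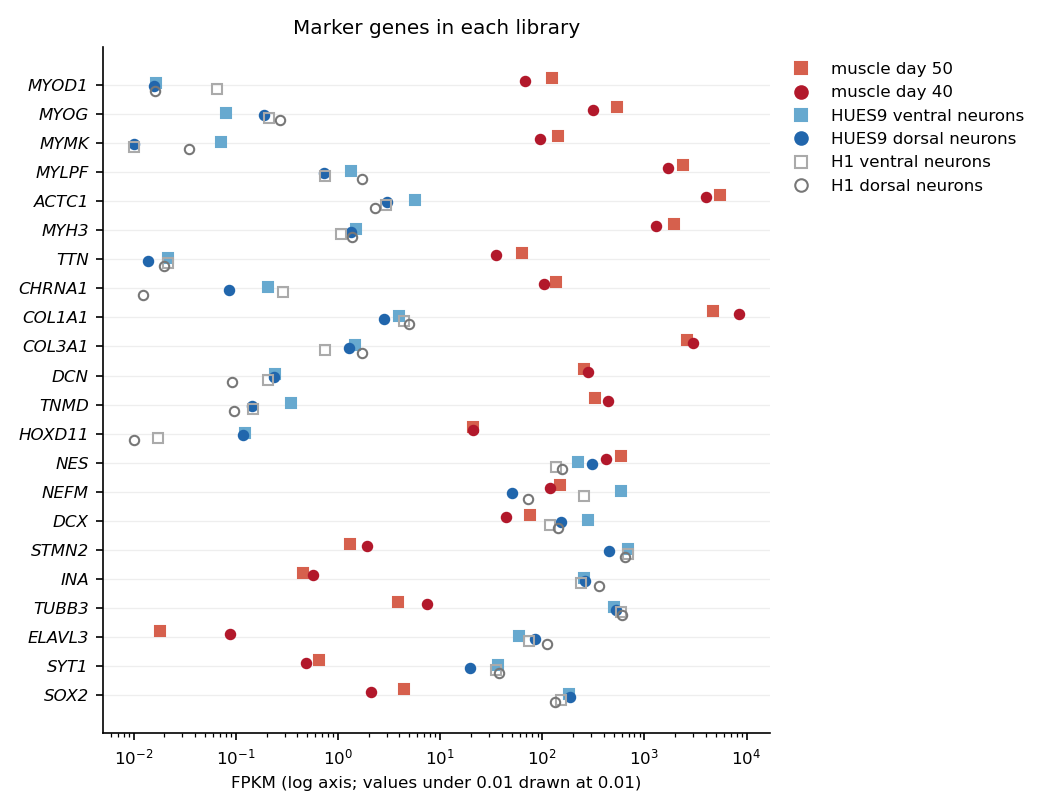
Level of 22 marker genes in FPKM (log axis) in each HUES9 library (filled symbols) and in H1 neurons (open symbols), 1 symbol per library. Muscle genes, collagens and HOXD11 separate muscle from all neuron libraries in one direction, STMN2, INA and TUBB3 in the other, while NEFM overlaps between the states.

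All 13 tested members of the list of myogenic regulators were higher in muscle, with a median difference of 3.39. MYOD1, which commits cells to the muscle fate, had 126 and 67.3 FPKM in muscle at days 50 and 40, against 0.0166 and 0.0159 FPKM in ventral and dorsal neurons, a difference of 6.52 ± 0.33 (standard error) on the log2(FPKM + 1) scale (limma adjusted p = 0.000947). MYOG, which drives terminal differentiation, had 539 and 312 FPKM in muscle, against 0.0797 and 0.190 FPKM in neurons (8.50 ± 0.30, limma adjusted p = 0.000592). Both factors were thus near 0 in the neurons and higher at day 50 than at day 40. MYMK, a fusogen that merges myoblasts, had 143 and 95.6 FPKM in muscle, against 0.0722 and 0 FPKM in neurons (6.83 ± 0.24, limma adjusted p = 0.000592). Its partner MYMX had 15.5 and 5.92 FPKM in muscle, against 0.0275 and 0.0131 FPKM in neurons (3.39 ± 0.46, limma adjusted p = 0.00823). MEF2C, a partner of the MYOD family, had 126 and 85.9 FPKM in muscle, against 0.956 and 1.31 FPKM in neurons (5.63 ± 0.24, limma adjusted p = 0.000704). The size of the difference varied among the members, from 0.98 for MEF2A, which neurons also held at 4.80 and 3.99 FPKM, to 8.50 for MYOG. MYF5, which acts early in muscle commitment, did not reach 1 FPKM in any of the 4 libraries. MYF6, an activator of the late programme, had 3.11 and 2.10 FPKM in muscle, against 0.248 and 0.0647 FPKM in neurons. PITX3, a homeobox factor of the muscle lineage, had 17.5 and 9.64 FPKM in muscle and was listed at 0 in both neuron libraries.

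Genes of satellite cells, the stem cells of muscle, were split, with 4 of 9 tested members higher in muscle and 2 lower. PAX7, which marks satellite cells and also dorsal neural tube, had 17.1 and 1.36 FPKM in muscle at days 50 and 40, against 0.0232 and 29.5 FPKM in ventral and dorsal neurons (0.22 ± 1.92, limma adjusted p = 0.933). The values overlapped, since dorsal neurons were above both muscle libraries and ventral neurons below both. PAX3 had 1.90 and 2.12 FPKM in muscle and 0.0728 and 63.7 FPKM in neurons, again with the neuron types on either side of muscle. CDH15, the M-cadherin of myoblasts, was higher, at 162 and 84.7 FPKM in muscle against 0.0105 and 0.0901 FPKM in neurons (6.81 ± 0.34, limma adjusted p = 0.000921). CXCR4, a chemokine receptor of migrating muscle precursors and of neurons, was lower, at 6.6 and 1.4 FPKM in muscle against 90.6 and 100.2 FPKM in neurons (-4.49 ± 0.58, limma adjusted p = 0.00732).

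Genes of the contractile apparatus were abundant in muscle. Thin filament genes, which encode sarcomeric actins, troponins, tropomyosins and nebulin, had 14 of 17 tested members higher in muscle and 0 lower, with a median difference of 7.53. They took 3.93% and 2.87% of the summed FPKM in muscle at days 50 and 40, against 0.0209% and 0.0244% in ventral and dorsal neurons. ACTC1, the cardiac actin that embryonic skeletal muscle also uses, had 5456 and 3977 FPKM in muscle, against 5.65 and 3.03 FPKM in neurons (9.81 ± 0.32, limma adjusted p = 0.000582). ACTA1, the skeletal actin, had 476 and 292 FPKM in muscle, against 0.141 and 0.385 FPKM in neurons (8.22 ± 0.29, limma adjusted p = 0.000592). ACTC1 was thus more abundant than ACTA1 on this per-length scale, and both stood apart from neurons in every library. Actin coding sequences are nearly identical, and the counting could have split shared fragments between them. The proximal promoters of both genes are shown because their differences were among the widest and because both hold a CArG box, the serum response factor motif, and a TATA box. The 120 bases before the start site are given 5′ to 3′ from RefSeq (GRCh38.p14), with both motifs in capitals:
ACTC1 (chr15:34795550-34795669, minus strand): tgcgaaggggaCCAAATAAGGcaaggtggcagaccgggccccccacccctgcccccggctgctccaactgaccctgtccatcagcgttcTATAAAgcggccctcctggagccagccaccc
ACTA1 (chr1:229434095-229434214, minus strand): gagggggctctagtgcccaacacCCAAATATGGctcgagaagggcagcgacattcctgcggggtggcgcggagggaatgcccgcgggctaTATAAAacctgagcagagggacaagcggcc

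The CArG box began 109 bases before the start of ACTC1 and 97 before that of ACTA1, and TATAAA began 31 and 30 bases before it. Searched on both strands in windows of the same length, a CArG box was in 178 of 27305 RefSeq promoters (0.652%), TATAAA in 1640 (6.01%), and both in 34 (0.125%). RefSeq promoters were matched for 66 of the 104 called members of the muscle lists (63.5%), under the 80% needed, so no share of motifs over these lists is given. A match describes letters and does not show a bound site.

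Slow and fast fibre isoforms of the troponins were present together. TNNT2, the cardiac and embryonic troponin T, had 749 and 449 FPKM in muscle at days 50 and 40, against 0.259 and 0.226 FPKM in ventral and dorsal neurons (8.87 ± 0.28, limma adjusted p = 0.000582). TNNT3, the fast form, had 518 and 345 FPKM in muscle, and TNNT1, the slow form, 411 and 354 FPKM. TNNC2, the fast troponin C, had 737 and 355 FPKM and TNNC1, the slow and cardiac form, 728 and 689.6 FPKM in muscle. All of these were under 1.5 FPKM in both neuron libraries. NEB, which encodes nebulin, had 98.1 and 55.9 FPKM in muscle, against 0.191 and 0.0971 FPKM in neurons. TPM3, TMOD1 and TMOD4 were the members not called; TPM3, a tropomyosin of slow fibres and of non-muscle cells, had 28.1 and 25.7 FPKM in muscle against 18.7 and 19.6 FPKM in neurons (0.47 ± 0.15, limma adjusted p = 0.0619), and was called higher with median-ratio size factors.

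Among myosin heavy chains, 5 of 7 tested members were higher in muscle. MYH3, the embryonic heavy chain, had 1952 and 1304 FPKM in muscle at days 50 and 40, against 1.51 and 1.35 FPKM in ventral and dorsal neurons (9.36 ± 0.24, limma adjusted p = 0.000568). MYH8, the perinatal chain, had 365 and 153 FPKM in muscle, against 0.0745 and 0.0617 FPKM in neurons (7.79 ± 0.44, limma adjusted p = 0.00114). MYH7, the slow and cardiac chain, had 31.2 and 17.8 FPKM in muscle, against 0.314 and 0.652 FPKM in neurons (4.06 ± 0.32, limma adjusted p = 0.00236). The order of levels in muscle was thus MYH3, MYH8 and MYH7 at both days, with no overlap between neighbours. The adult fast chains MYH2, MYH1 and MYH4 were at or under 0.420 FPKM in both muscle libraries and were not tested. MYH10, a non-muscle chain of neurons and other cells, had 44.1 and 61.3 FPKM in muscle and 57.4 and 54.04 FPKM in neurons (-0.10 ± 0.21, limma adjusted p = 0.722), and its values overlapped. Of 8 tested light chains 6 were higher in muscle. MYLPF, the fast regulatory light chain, had 2403 and 1684 FPKM in muscle, against 1.35 and 0.737 FPKM in neurons (9.96 ± 0.26, limma adjusted p = 0.000568). MYL4, the embryonic and atrial light chain, had 581 and 406 FPKM in muscle, against 0.133 and 0.0764 FPKM in neurons (8.78 ± 0.22, limma adjusted p = 0.000568). MYL6, the light chain of non-muscle myosin, overlapped between the states, at 639.7 and 735 FPKM in muscle and 696 and 544 FPKM in neurons.

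Of 23 tested genes of the Z-disc, the M-band and titin, 22 were higher in muscle and 0 lower (median 4.70). DES, the intermediate filament of muscle, had 843 and 733 FPKM in muscle at days 50 and 40, against 0.640 and 0.306 FPKM in ventral and dorsal neurons (9.07 ± 0.19, limma adjusted p = 0.000568). TTN, the titin spring, had 63 and 35.3 FPKM in muscle, against 0.0216 and 0.0137 FPKM in neurons (5.57 ± 0.31, limma adjusted p = 0.00114). MYBPH, a thick filament protein, had 725 and 442 FPKM in muscle, against 0.363 and 0.252 FPKM in neurons. ACTN2, the Z-disc actinin, had 181 and 131 FPKM and its fast fibre relative ACTN3 2.71 and 1.88 FPKM in muscle. The member not called was MYOM2, an M-band protein, at 19.9 and 13.7 FPKM in muscle against 4.77 and 10.9 FPKM in neurons (1.08 ± 0.41, limma adjusted p = 0.0991). Its muscle values were above both neuron values, and it was called higher with median-ratio size factors.

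Genes that couple excitation to contraction had 16 of 18 tested members higher in muscle (median 3.84). RYR1, the calcium release channel of the sarcoplasmic reticulum, had 131 and 69.3 FPKM in muscle at days 50 and 40, against 0.374 and 0.128 FPKM in ventral and dorsal neurons (6.27 ± 0.35, limma adjusted p = 0.00112). CACNA1S, the voltage sensor that gates it, had 46.5 and 30.8 FPKM in muscle, against 0.00995 and 0.00951 FPKM in neurons (5.27 ± 0.25, limma adjusted p = 0.000808). ATP2A1, the fast fibre calcium pump, had 109.8 and 43.8 FPKM in muscle, against 0.559 and 0.437 FPKM in neurons (5.56 ± 0.46, limma adjusted p = 0.00258). The calsequestrin of slow and cardiac muscle, CASQ2, had 129.8 and 90.4 FPKM in muscle, while CASQ1, the fast form, did not reach 1 FPKM. ATP2A2, the calcium pump that most cells use, overlapped, at 73.9 and 59.7 FPKM in muscle and 85.9 and 58.8 FPKM in neurons. The dystrophin complex, which ties the cytoskeleton to the matrix, had 10 of 13 tested members higher in muscle. CAV3, the caveolin of striated muscle, had 87.9 and 59.9 FPKM in muscle, and SGCA, a sarcoglycan, had 55.1 and 32.8 FPKM; both were listed at 0 in both neuron libraries. DAG1, the dystroglycan gene, had 46.4 and 39.02 FPKM in muscle and 30.99 and 32.5 FPKM in neurons (0.41 ± 0.16, limma adjusted p = 0.102); it was called higher with median-ratio size factors.

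The list of the muscle acetylcholine receptor and synapse had 7 of 11 tested members higher in muscle and 1 lower. CHRNA1, the receptor's alpha subunit, had 138 and 104 FPKM in muscle at days 50 and 40, against 0.205 and 0.0855 FPKM in ventral and dorsal neurons (6.72 ± 0.20, limma adjusted p = 0.000582). CHRNG, the gamma subunit of the fetal receptor, had 140.2 and 95.5 FPKM in muscle, against 0.0599 and 0.0429 FPKM in neurons (6.79 ± 0.23, limma adjusted p = 0.000592). CHRNE, the epsilon subunit that replaces it in the adult receptor, had 0.421 and 0.214 FPKM in muscle and was not tested. Fetal and adult subunits thus differed in level at both days, with CHRNG above CHRNE. RAPSN, which clusters the receptor, had 74.3 and 43.4 FPKM in muscle, against 0.0370 and 0.265 FPKM in neurons, and MUSK, the kinase that starts clustering, had 6.996 and 5.11 FPKM in muscle and was listed at 0 in both neuron libraries. The lower member was AGRN, the nerve-derived signal for clustering, at 37.5 and 24.5 FPKM in muscle against 74.7 and 58.6 FPKM in neurons (-1.10 ± 0.27, limma adjusted p = 0.0341); it was not called with median-ratio size factors. ACHE, the esterase that ends transmission, had 6.54 and 3.13 FPKM in muscle and 8.28 and 1.54 FPKM in neurons, and its values overlapped.

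Energy genes of muscle had 7 of 14 tested members higher and 0 lower, and 9 higher with median-ratio size factors. CKM, the muscle creatine kinase, had 296 and 118 FPKM in muscle at days 50 and 40, against 0.154 and 0.0921 FPKM in ventral and dorsal neurons (7.39 ± 0.46, limma adjusted p = 0.00144). MB, myoglobin, had 6.47 and 6.13 FPKM in muscle and was listed at 0 in both neuron libraries. PFKM, a glycolytic enzyme, overlapped, at 36 and 21.8 FPKM in muscle and 27.2 and 23.1 FPKM in neurons. So did PPARGC1A, a coactivator of mitochondrial genes, at 1.36 and 0.745 FPKM in muscle and 1.25 and 0.103 FPKM in neurons. The promoters of CKM and CHRNA1, a metabolic and a synaptic gene of the muscle programme, are shown because each holds a CAGCTG E-box, the hexamer that MYOD family dimers prefer, which is in capitals:
CKM (chr19:45322876-45322995, minus strand): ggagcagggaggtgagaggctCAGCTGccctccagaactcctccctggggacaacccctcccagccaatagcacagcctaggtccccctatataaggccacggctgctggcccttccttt
CHRNA1 (chr2:174764473-174764592, minus strand): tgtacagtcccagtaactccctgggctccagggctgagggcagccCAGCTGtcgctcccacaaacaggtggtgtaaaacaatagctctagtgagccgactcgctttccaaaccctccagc

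The hexamer began 99 bases before the start of CKM and 75 before that of CHRNA1. It reads the same on both strands and was in 1896 of 27305 RefSeq promoter windows of 120 bases (6.94%). The windows of ACTC1 and ACTA1 held none.

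Connective tissue genes were also abundant in muscle. All 15 collagens tested were higher in muscle, with a median difference of 6.26, and took 4.22% and 6.97% of the summed FPKM in muscle at days 50 and 40, against 0.0475% and 0.0451% in ventral and dorsal neurons. COL1A1, a chain of the main fibrillar collagen, had 4699.9 and 8504 FPKM in muscle, against 4.001 and 2.79 FPKM in neurons (10.50 ± 0.35, limma adjusted p = 0.000582), the widest difference of the 13186 genes. COL3A1, which co-assembles with it, had 2611 and 3016 FPKM in muscle, against 1.48 and 1.28 FPKM in neurons (10.2 ± 0.16, limma adjusted p = 0.000568). Both genes were under 5 FPKM in both neuron libraries and lower in muscle at day 50 than at day 40. COL6A1, a chain of microfibrillar collagen, differed less, at 334 and 308 FPKM in muscle against 103 and 50.2 FPKM in neurons (2.14 ± 0.37, limma adjusted p = 0.0152). Of 27 matrix and fibroblast genes 26 were higher (median 5.32), and they took 1.58% and 2.77% of the summed FPKM in muscle, against 0.0863% and 0.0448% in neurons. LUM, a small proteoglycan of connective tissue, had 346 and 471 FPKM in muscle, against 0.360 and 0.193 FPKM in neurons (8.31 ± 0.21, limma adjusted p = 0.000568). DCN, another, had 255 and 283 FPKM in muscle, against 0.243 and 0.237 FPKM in neurons (7.76 ± 0.15, limma adjusted p = 0.000568). Every one of these proteoglycan and collagen values was below 5 FPKM in neurons apart from COL6A1. OGN, a further proteoglycan, had 328 and 489 FPKM in muscle, against 0.0784 and 0.108 FPKM in neurons (8.52 ± 0.24, limma adjusted p = 0.000568). PDGFRA, a receptor of fibroblasts and of muscle-resident progenitors, had 54.97 and 52.1 FPKM in muscle, against 0.342 and 2.28 FPKM in neurons (4.70 ± 0.46, limma adjusted p = 0.00377). TWIST1, a mesenchymal transcription factor, had 15.97 and 19.2 FPKM in muscle, against 0.0184 and 0.0176 FPKM in neurons, and PRRX1, another, 78.7 and 103 FPKM in muscle, against 0.0555 and 0.325 FPKM in neurons. FBLN1, fibulin 1, was the member not called, at 45.3 and 74.1 FPKM in muscle against 5.34 and 33.3 FPKM in neurons.

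Transcripts of these abundant genes were not at 0 in the neurons. For the 13 members of the muscle and connective tissue lists with at least 500 FPKM in both muscle libraries, the median level was 0.0813% of the muscle mean in ventral neurons and 0.0476% in dorsal neurons. The same median was 0.0720% and 0.0848% in H1 ventral and dorsal neurons and 0.153% in the HUES9 stem cells. MYL6 stood apart, at 101% and 79.2% of the muscle mean in ventral and dorsal neurons. The source of these low values was not tested.

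Markers of other mesodermal cells were measured beside these. Of 8 tested smooth muscle and contractile fibroblast genes, 8 were higher in muscle. ACTA2, the smooth muscle actin that myofibroblasts and immature muscle also make, had 296 and 399.96 FPKM in muscle at days 50 and 40, against 1.10 and 5.12 FPKM in ventral and dorsal neurons (6.59 ± 0.56, limma adjusted p = 0.00265). MYH11, the heavy chain that defines smooth muscle, did not reach 1 FPKM in any of the 4 libraries. Tendon and cartilage genes were split, with 6 of 11 tested members higher and 4 lower. TNMD, tenomodulin, a membrane protein of tendon cells, had 328 and 437 FPKM in muscle, against 0.349 and 0.143 FPKM in neurons (8.26 ± 0.21, limma adjusted p = 0.000568). MKX, a tendon transcription factor, was also higher, at 8.95 and 23.6 FPKM in muscle against 0.188 and 0.0320 FPKM in neurons, as was SCX, another, at 5.08 and 4.23 FPKM in muscle against 1.05 and 1.03 FPKM in neurons. ACAN, a cartilage gene, was higher too, at 3.28 and 18.5 FPKM in muscle against 0.352 and 0.00320 FPKM in neurons (2.97 ± 0.77, limma adjusted p = 0.0395). The lower members included SOX9 and SOX5, which direct cartilage and which neural progenitors also express. SOX9 had 3.20 and 2.90 FPKM in muscle, against 57.4 and 67.5 FPKM in neurons (-3.97 ± 0.16, limma adjusted p = 0.000667). Of the 3 cartilage markers SOX9, COL2A1 and ACAN, 2 were higher in muscle and 1, SOX9, was lower. Of 10 cardiac genes in the table, 2 reached 1 FPKM and 0 were called. NKX2-5, a cardiac homeobox factor, had 1.59 and 1.59 FPKM in muscle and 1.25 and 1.29 FPKM in neurons, while TBX5, GATA4 and HAND2 did not reach 1 FPKM. The endothelial genes PECAM1, CDH5 and KDR and the blood gene PTPRC were under 1 FPKM in all 4 libraries, whereas CD34, which endothelial cells share with other progenitors, had 8.89 and 8.84 FPKM in muscle and 0.0147 and 0.0316 FPKM in neurons (3.27 ± 0.18, limma adjusted p = 0.0011). The other endothelial and blood genes above 1 FPKM, TEK and ERG, were also higher in muscle, TEK at 2.77 and 2.69 FPKM against 0.0252 and 0.0662 FPKM in neurons and ERG at 1.12 and 2.55 FPKM against 0 in both neuron libraries. Of 6 tested epithelial genes 1 was higher, TP63, of basal epithelia, at 3.88 and 2.53 FPKM in muscle against 0.00850 and 0.0244 FPKM in neurons. Central glial genes had 3 of 11 tested members higher, AQP1, PDGFRA and CSPG4, and 2 lower, SLC1A2 and SLC1A3. PDGFRA is also among the connective tissue markers above, and GFAP, S100B and OLIG1 were not called. Neural crest and peripheral glial genes had 3 of 10 higher and 2 lower. SOX10, the factor that defines crest glia, had 1.04 and 0.3995 FPKM in muscle and 4.86 and 0.318 FPKM in neurons, and its values overlapped. Of 5 tested pluripotency genes 1 was higher and 3 lower, and POU5F1 and NANOG were at or under 0.120 FPKM throughout. The part that other cell types took in the calls was not tested.

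**Figure D2:**
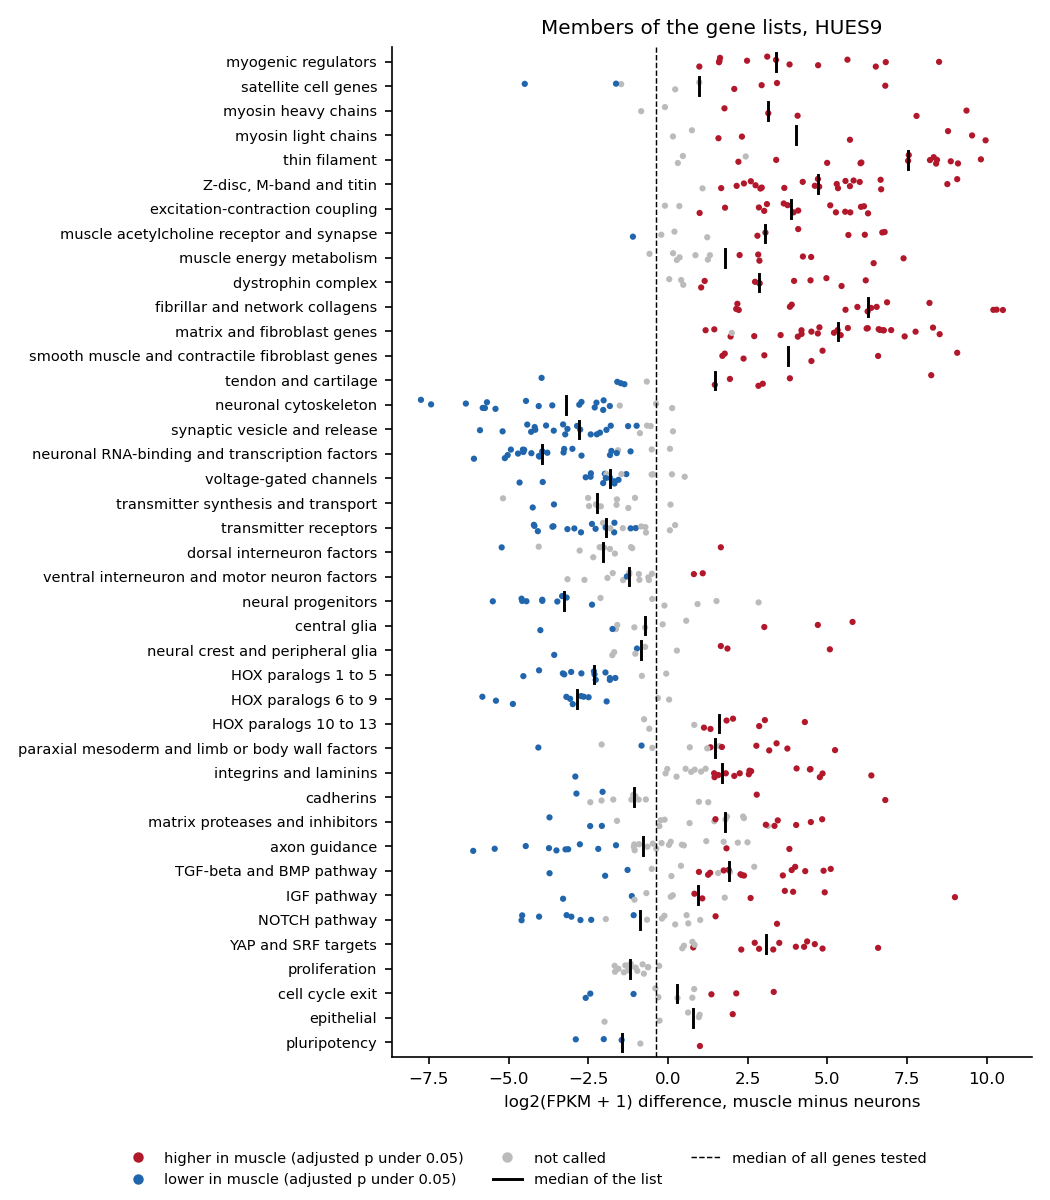
Differences in log2(FPKM + 1), muscle minus neurons, for the tested members of 41 gene lists with at least 5 tested members; 1 point is a gene, colour gives its call, the bar is the median of the list and the dashed line the median of all 13186 genes (-0.38). Muscle and connective tissue lists lie to the right of the dashed line, neuron lists and HOX paralogs 1 to 9 to its left, and proliferation genes hold no called member.

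Genes of the neuronal cytoskeleton were lower in muscle in 17 of 20 tested members and higher in 0, with a median difference of -3.21. STMN2, a microtubule regulator of growing axons, had 1.31 and 1.92 FPKM in muscle at days 50 and 40, against 689 and 451 FPKM in ventral and dorsal neurons (-7.75 ± 0.27, limma adjusted p = 0.000592). INA, the intermediate filament internexin, had 0.451 and 0.567 FPKM in muscle, against 258 and 261 FPKM in neurons (-7.43 ± 0.14, limma adjusted p = 0.000568). These were the widest deficits of the 13186 genes, and neither gene reached 2 FPKM in muscle. The INA promoter is shown as the neuronal counterpart of the actin promoters, from the same RefSeq build and with the same 120 bases:
INA (chr10:103277018-103277137, plus strand): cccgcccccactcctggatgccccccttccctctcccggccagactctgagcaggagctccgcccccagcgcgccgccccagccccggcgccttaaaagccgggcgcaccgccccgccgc

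This window held 13 CG pairs, against 5 in ACTC1, 8 in ACTA1, 1 in CKM, 3 in CHRNA1 and a median of 6 over the 27305 windows (quartiles 1 and 13). It held no match to the E-box hexamer, the TATA hexamer or a CArG box, which says nothing about the factors that bind them.

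TUBB3, the neuronal beta tubulin, had 3.85 and 7.38 FPKM in muscle, against 503 and 529.7 FPKM in neurons (-6.34 ± 0.30, limma adjusted p = 0.000808). MAPT, the axonal protein tau, had 0.773 and 0.562 FPKM in muscle, against 97.8 and 49.8 FPKM in neurons (-5.41 ± 0.36, limma adjusted p = 0.0016). MAP2, its dendritic relative, had 7.24 and 5.39 FPKM in muscle, against 122 and 117 FPKM in neurons (-4.06 ± 0.18, limma adjusted p = 0.000783). TUBA1A, which many dividing and growing cells use, differed less, at 437 and 351 FPKM in muscle against 2601 and 2555 FPKM in neurons (-2.71 ± 0.19, limma adjusted p = 0.0019). Tubulin genes share long identical stretches, so fragments may have been split between them. Some genes often used as neuronal markers were abundant in muscle. The neuron lists, which include neural progenitor genes, held 14 members with at least 100 FPKM in both neuron libraries. Their median level in muscle was 10.4% of the neuron mean at day 50 and 9.06% at day 40. The highest of the 14 was NES, of the progenitor list, at 224% and 158%. DCX, which binds microtubules in young neurons, had 76.3 and 43.8 FPKM in muscle, against 283 and 152 FPKM in neurons (-1.83 ± 0.42, limma adjusted p = 0.0301), and it was not called with median-ratio size factors. The neurofilament genes NEFL, NEFM and NEFH were not called. NEFM had 151 and 119 FPKM in muscle, against 592 and 50.8 FPKM in neurons (-0.37 ± 1.19, limma adjusted p = 0.811). NEFL had 51.5 and 49.95 FPKM in muscle, against 715 and 29.5 FPKM in neurons (-1.51 ± 1.53, limma adjusted p = 0.45). For NEFM and NEFL muscle lay between the neuron types, above dorsal and below ventral neurons. NES, an intermediate filament of neural progenitors and of young muscle, had 595 and 419 FPKM in muscle, against 224 and 306 FPKM in neurons (0.93 ± 0.27, limma adjusted p = 0.0525). Its muscle values were above both neuron values, and with median-ratio size factors it was called higher.

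Synaptic vesicle and release genes were lower in muscle in 20 of 24 tested members (median -2.80) and higher in 0. SYT4, a vesicle synaptotagmin, had 0.449 and 0.176 FPKM in muscle at days 50 and 40, against 67.4 and 87.5 FPKM in ventral and dorsal neurons (-5.90 ± 0.22, limma adjusted p = 0.000592). SYP, synaptophysin, had 0.593 and 0.202 FPKM in muscle, against 69.03 and 35.4 FPKM in neurons (-5.19 ± 0.37, limma adjusted p = 0.00198). SNAP25, a membrane fusion protein, had 2.34 and 3.22 FPKM in muscle, against 52.2 and 37.2 FPKM in neurons (-3.58 ± 0.24, limma adjusted p = 0.00171). Neuronal RNA-binding proteins and transcription factors were lower in 22 of 25 tested members (median -3.94). ELAVL3, which stabilises neuronal messages, had 0.0183 and 0.0880 FPKM in muscle, against 58.8 and 84.7 FPKM in neurons (-6.09 ± 0.23, limma adjusted p = 0.000592). NOVA2, which directs neuronal splicing, had 0.146 and 0.0447 FPKM in muscle, against 30.5 and 34.3 FPKM in neurons, and SRRM4, which does so for microexons, 0.0142 and 0.0376 FPKM in muscle, against 14.2 and 17.5 FPKM in neurons. RBFOX1, a splicing factor that muscle and neurons share, had 6.05 and 3.31 FPKM in muscle, against 10.5 and 12.4 FPKM in neurons (-1.18 ± 0.29, limma adjusted p = 0.0353), and was not called with median-ratio size factors. EBF3, which both lineages are known to use, overlapped, at 32.2 and 23.9 FPKM in muscle and 21 and 75.5 FPKM in neurons.

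Of 19 tested voltage-gated channel subunits 13 were lower in muscle and 0 higher. SCN3A, a sodium channel of immature neurons, had 0.185 and 0.134 FPKM in muscle at days 50 and 40, against 25.9 and 10.6 FPKM in ventral and dorsal neurons (-3.93 ± 0.44, limma adjusted p = 0.00528). SCN4A, the adult muscle sodium channel, had 0.433 and 0.225 FPKM in muscle and was not tested. Receptors for glutamate, GABA, glycine and acetylcholine had 15 of 23 tested members lower. GRIA2, an AMPA receptor subunit, had 0.0609 and 0.0782 FPKM in muscle, against 30.9 and 10.9 FPKM in neurons (-4.19 ± 0.50, limma adjusted p = 0.00633). GLRA2, a fetal glycine receptor subunit, had 0.241 and 0.161 FPKM in muscle, against 15.3 and 29.1 FPKM in neurons (-4.21 ± 0.34, limma adjusted p = 0.00239). With size factors the channel count was 10 and the receptor count 13.

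Where ventral and dorsal neurons themselves differed, the test called few genes. Of 13 tested genes of transmitter synthesis and transport 2 were lower in muscle. SLC17A6, the glutamate vesicle transporter, had 0.0245 and 0 FPKM in muscle at days 50 and 40, against 11.9 and 10.3 FPKM in ventral and dorsal neurons (-3.58 ± 0.19, limma adjusted p = 0.000988). GAD1, which makes GABA, had 0.140 and 0.116 FPKM in muscle, against 1.45 and 15.8 FPKM in neurons (-2.51 ± 0.95, limma adjusted p = 0.0959). SLC18A3, the acetylcholine vesicle transporter, had 0.0993 and 0.203 FPKM in muscle, against 25.1 and 0.131 FPKM in neurons (-2.24 ± 1.53, limma adjusted p = 0.283). GAD1 was thus high in dorsal neurons and SLC18A3 in ventral neurons, each with the other type nearer to muscle. Of 12 tested dorsal interneuron factors 1 was lower and 1 higher, and of 15 ventral interneuron and motor neuron factors 1 was lower and 2 higher. LBX1, a dorsal interneuron and limb muscle precursor factor, had 1.17 and 0.895 FPKM in muscle, against 0.0339 and 70.3 FPKM in neurons (-2.08 ± 2.05, limma adjusted p = 0.439). LHX3, a motor neuron factor, had 0 and 0.0550 FPKM in muscle, against 10.6 and 0.00912 FPKM in neurons (-1.73 ± 1.2, limma adjusted p = 0.288). EN1, a homeobox factor of ventral interneurons and of the dermomyotome, was higher, at 22.7 and 20.3 FPKM in muscle against 12.8 and 10.9 FPKM in neurons (0.81 ± 0.17, limma adjusted p = 0.0222).

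Neural progenitor genes were lower in muscle in 10 of 16 tested members. SOX2, which keeps neural progenitors undifferentiated, had 4.44 and 2.09 FPKM in muscle at days 50 and 40, against 183 and 185 FPKM in ventral and dorsal neurons (-5.50 ± 0.31, limma adjusted p = 0.00111). HES5, a NOTCH effector of those progenitors, had 0.0678 and 0.0218 FPKM in muscle, against 13.6 and 42.6 FPKM in neurons (-4.59 ± 0.55, limma adjusted p = 0.00639). The neuron cultures thus held progenitor transcripts beside neuronal ones. In the NOTCH pathway, which holds cells in a progenitor state, 8 of 18 tested members were lower in muscle and 2 higher, and 5 were higher with median-ratio size factors. NOTCH1 had 15.9 and 8.10 FPKM in muscle, against 79.7 and 127 FPKM in neurons (-3.03 ± 0.40, limma adjusted p = 0.00778), while NOTCH2 had 34.6 and 36.5 FPKM in muscle, against 14.3 and 10.02 FPKM in neurons (1.49 ± 0.21, limma adjusted p = 0.00946). HEYL, an effector that satellite cells use, was the other higher member, at 29.3 and 15.7 FPKM in muscle against 0.464 and 2.02 FPKM in neurons. NOTCH receptors thus differed in direction.

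None of 18 proliferation genes was called in either direction with limma, with or without size factors, and 1, BUB1, had an unadjusted p under 0.05. MKI67, made by dividing cells, had 14.2 and 11.98 FPKM in muscle at days 50 and 40, against 15.3 and 67.2 FPKM in ventral and dorsal neurons (-1.25 ± 0.71, limma adjusted p = 0.213). TOP2A, a topoisomerase of dividing cells, had 18.9 and 17.7 FPKM in muscle, against 26.1 and 117 FPKM in neurons (-1.55 ± 0.73, limma adjusted p = 0.148). Ventral neurons were close to muscle and dorsal neurons above it. Of 11 genes of cell cycle exit 3 were higher and 3 lower in muscle. CDKN1A, the p21 inhibitor induced as myoblasts leave the cycle, had 96.4 and 68.6 FPKM in muscle, against 3.70 and 13.5 FPKM in neurons (3.32 ± 0.59, limma adjusted p = 0.0157). CDKN2D, a p19 inhibitor of neurons, had 3.61 and 4.55 FPKM in muscle, against 29.8 and 28.8 FPKM in neurons (-2.58 ± 0.17, limma adjusted p = 0.00157). CCND3, the D cyclin of differentiating muscle, was higher, at 31.96 and 24.6 FPKM in muscle against 5.09 and 6.12 FPKM in neurons (2.14 ± 0.20, limma adjusted p = 0.00346).

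HOX genes, whose paralog number follows their order of use from head to tail, differed in their calls by that number. Of paralogs 1 to 5, 13 of 15 tested members were lower in muscle, and of paralogs 6 to 9, 10 of 12, with 0 higher in either. Of paralogs 10 to 13, 7 of 10 were higher and 0 lower. Among these 7, only HOXD10 reached 1 FPKM in neurons as well as in muscle. The others, HOXD11, HOXA11, HOXC11 and HOXD13 among them, did so in muscle only, so their calls are not support for that direction. HOXB9 had 3.98 and 3.79 FPKM in muscle at days 50 and 40, against 154 and 493 FPKM in ventral and dorsal neurons (-5.82 ± 0.58, limma adjusted p = 0.00396), the widest deficit of the family. HOXA5 had 7.04 and 8.89 FPKM in muscle, against 81.96 and 91.8 FPKM in neurons (-3.30 ± 0.18, limma adjusted p = 0.00104). HOXD11, used in the lumbosacral trunk and the limb, had 20.9 and 20.97 FPKM in muscle, against 0.123 and 0.118 FPKM in neurons (4.29 ± 0.16, limma adjusted p = 0.000592). The muscle values of HOXD11 differed little between days and both neuron values were near 0. HOXA11 had 8.48 and 7.26 FPKM in muscle, against 0.101 and 0.0537 FPKM in neurons (3.04 ± 0.19, limma adjusted p = 0.0015), and HOXD10 25.3 and 27.01 FPKM in muscle, against 4.24 and 1.67 FPKM in neurons (2.86 ± 0.36, limma adjusted p = 0.00698). HOXC11 had 2.58 and 2.56 FPKM in muscle and HOXD13 1.5 and 0.908 FPKM, and both were listed at 0 in both neuron libraries. HOXB1, HOXD1, HOXD8, HOXD9, HOXA10, HOXC10 and HOXA13 were not called. HOXD9 had 29.7 and 30.4 FPKM in muscle and 48.1 and 29.5 FPKM in neurons, and its values overlapped. HOXC10 had 20.6 and 19.8 FPKM in muscle and 23.2 and 51.6 FPKM in neurons, with both neuron values above muscle. These differences were for the values as listed, and with median-ratio size factors the counts were the same, 13, 10 and 7.

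**Figure D3:**
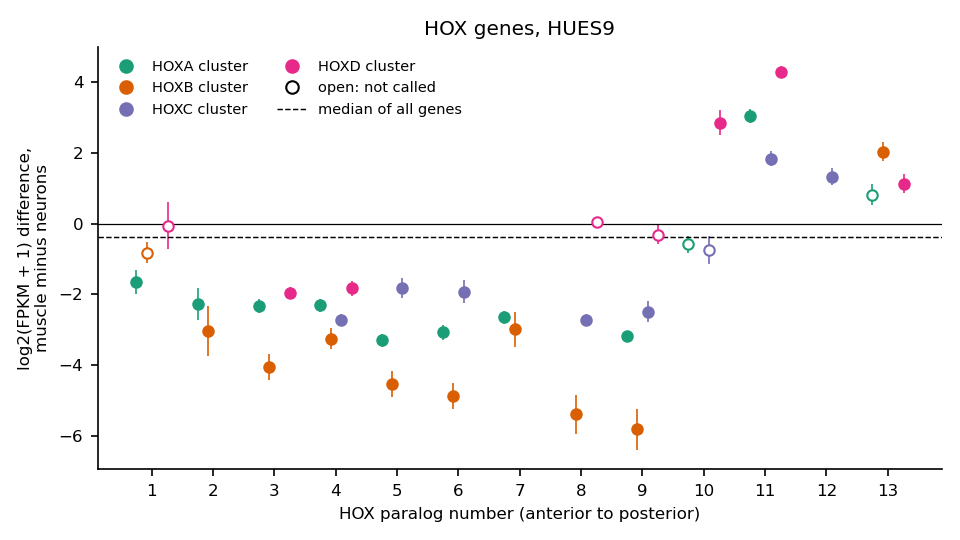
Differences in log2(FPKM + 1) of HOX genes, muscle minus neurons, by paralog number and coloured by cluster; bars are standard errors, open symbols were not called and the dashed line is the median of all genes (-0.38). Paralogs 1 to 9 lie mostly below the dashed line, with HOXB9 at -5.82, and paralogs 11 to 13 above it, with HOXD11 at 4.29.

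Other factors of body position and paraxial mesoderm had 7 of 14 tested members higher and 2 lower. MEOX2, a homeobox factor of somites and limb muscle, had 27.5 and 53.5 FPKM in muscle at days 50 and 40, against 0.0633 and 0.0242 FPKM in ventral and dorsal neurons (5.24 ± 0.35, limma adjusted p = 0.00166). TBX15, which acts in muscle and in the mesoderm of limb and body wall, had 26.9 and 17.2 FPKM in muscle, against 0.876 and 0.510 FPKM in neurons (3.74 ± 0.28, limma adjusted p = 0.00208). PAX9, of the sclerotome that forms the vertebrae, had 6.97 and 9.22 FPKM in muscle and was listed at 0 in both neuron libraries. UNCX, a factor of the caudal somite compartment and of spinal interneurons, was lower, listed at 0 in muscle against 10.4 and 23.6 FPKM in neurons (-4.07 ± 0.41, limma adjusted p = 0.00403). TBX6, the determinant of presomitic mesoderm, did not reach 1 FPKM.

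Of 24 tested integrins and laminins 15 were higher in muscle and 1 lower. ITGA7, the laminin receptor of muscle fibres, had 35.3 and 28.1 FPKM in muscle at days 50 and 40, against 7.13 and 6.29 FPKM in ventral and dorsal neurons (2.08 ± 0.18, limma adjusted p = 0.003). LAMA2, the laminin chain of muscle basement membrane, had 31.1 and 24.2 FPKM in muscle, against 0.286 and 0.284 FPKM in neurons (4.47 ± 0.19, limma adjusted p = 0.000699). The lower member was ITGB8, which neural progenitors use to activate TGF-beta, at 2.23 and 2.80 FPKM in muscle against 29.4 and 21.8 FPKM in neurons (-2.91 ± 0.22, limma adjusted p = 0.00208). Of 14 cadherins CDH11 and CDH15 were higher and CDH2 and CDH4 lower; CDH2, N-cadherin, had 20.9 and 24.8 FPKM in muscle, against 86.4 and 110.2 FPKM in neurons (-2.05 ± 0.20, limma adjusted p = 0.00355). Matrix proteases and inhibitors had 7 of 21 members higher and 3 lower. MMP2, a gelatinase, had 165 and 187 FPKM in muscle, against 11.6 and 2.02 FPKM in neurons, and MMP14, which activates it, 188 and 226 FPKM in muscle, against 12.98 and 10.7 FPKM in neurons. MMP24, a membrane protease of neurons, had 0.0586 and 0.238 FPKM in muscle, against 18.1 and 10.9 FPKM in neurons. Axon guidance genes had 10 of 28 members lower, a share near that of all genes (28.1%), and 2 higher. SLIT1, a repellent ligand, had 0.391 and 0.297 FPKM in muscle, against 251 and 33.2 FPKM in neurons (-6.11 ± 0.98, limma adjusted p = 0.0124), and DCC, the netrin receptor, 1.22 and 1.65 FPKM in muscle, against 17.5 and 26.5 FPKM in neurons (-3.22 ± 0.26, limma adjusted p = 0.00242). The higher members were SEMA3D, a secreted semaphorin, at 24.2 and 16 FPKM in muscle against 0.486 and 0.475 FPKM in neurons, and EFNA5, an ephrin, at 6.80 and 9.19 FPKM in muscle against 0.857 and 2.37 FPKM in neurons.

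Of 23 tested TGF-beta and BMP genes 14 were higher in muscle and 3 lower. BMP4, a ligand, had 30.6 and 45.2 FPKM in muscle at days 50 and 40, against 0.145 and 0.0808 FPKM in ventral and dorsal neurons (5.10 ± 0.24, limma adjusted p = 0.000808), while BMP7, another ligand, had 1.61 and 1.08 FPKM in muscle, against 36.7 and 23.8 FPKM in neurons (-3.72 ± 0.27, limma adjusted p = 0.00203). TGFBR2, a receptor, had 23.5 and 26.2 FPKM in muscle, against 0.274 and 0.339 FPKM in neurons (4.30 ± 0.17, limma adjusted p = 0.0006), and its partner TGFBR1 was lower, at 4.69 and 5.87 FPKM in muscle against 14.3 and 13.9 FPKM in neurons (-1.27 ± 0.17, limma adjusted p = 0.00835). Ligands and receptors thus held members of both directions. MSTN, myostatin, the inhibitor of muscle growth, had 20.1 and 7.44 FPKM in muscle, against 0.160 and 0.0407 FPKM in neurons (3.6 ± 0.48, limma adjusted p = 0.00789). In the insulin-like growth factor pathway 7 of 14 members were higher and 2 lower. IGF2, a growth factor of differentiating muscle, had 1169 and 801 FPKM in muscle, against 0.813 and 0.976 FPKM in neurons (9.0 ± 0.23, limma adjusted p = 0.000568). IGF2 was 28.9 and 18.5 FPKM in H1 ventral and dorsal neurons, above both HUES9 neuron libraries and below both muscle libraries. IGF1R, the receptor, was lower, at 8.34 and 6.77 FPKM in muscle against 15.1 and 20.7 FPKM in neurons (-1.14 ± 0.22, limma adjusted p = 0.0199). YAP and SRF targets, which respond to tension and to actin, had 12 of 16 members higher and 0 lower. CCN2, a secreted YAP target, had 78.96 and 205 FPKM in muscle, against 7.04 and 3.83 FPKM in neurons (4.36 ± 0.54, limma adjusted p = 0.0067).

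Related genes of which one is known for muscle and the other for neurons or other cells were set side by side. Of 27 such pairs 11 were called in opposite directions, the first higher and the second lower in muscle. Enolase was the widest of these: ENO3 had 189.6 and 122 FPKM in muscle at days 50 and 40, against 0.475 and 1.08 FPKM in ventral and dorsal neurons (6.45 ± 0.30, limma adjusted p = 0.000808), and ENO2 had 3.39 and 2.74 FPKM in muscle, against 132 and 95.2 FPKM in neurons (-4.81 ± 0.22, limma adjusted p = 0.000808). CKB, the brain creatine kinase, had 211 and 119.9 FPKM in muscle, against 553 and 602 FPKM in neurons (-1.85 ± 0.31, limma adjusted p = 0.0138), while CKM was higher. Membrane fusion proteins moved the same way. SNAP23 and STX4, of general exocytosis, and VAMP5 were higher, and SNAP25, STX1A and VAMP2 of synaptic vesicles were lower. STX1A was not called with median-ratio size factors, nor were COX6A1 and CHRNA3, the second genes of other pairs. In other pairs the second gene was not called, as with the cytoplasmic actins: ACTB had 1088 and 1487 FPKM in muscle, against 1427 and 1897 FPKM in neurons (-0.37 ± 0.26, limma adjusted p = 0.299). KIF5B, the general kinesin, overlapped at 47.8 and 46.2 FPKM in muscle and 46.6 and 64.9 FPKM in neurons, while KIF5A, the neuronal one, had 0.176 and 0.130 FPKM in muscle, against 74.9 and 44.98 FPKM in neurons (-5.68 ± 0.28, limma adjusted p = 0.000911). PTBP1, a splicing repressor of non-neuronal cells, overlapped at 52.96 and 48.9 FPKM in muscle and 32.5 and 66.1 FPKM in neurons. PTBP2, which replaces it in young neurons, had 10.9 and 8.16 FPKM in muscle, against 51.7 and 60.4 FPKM in neurons (-2.45 ± 0.20, limma adjusted p = 0.00252).

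**Figure D4:**
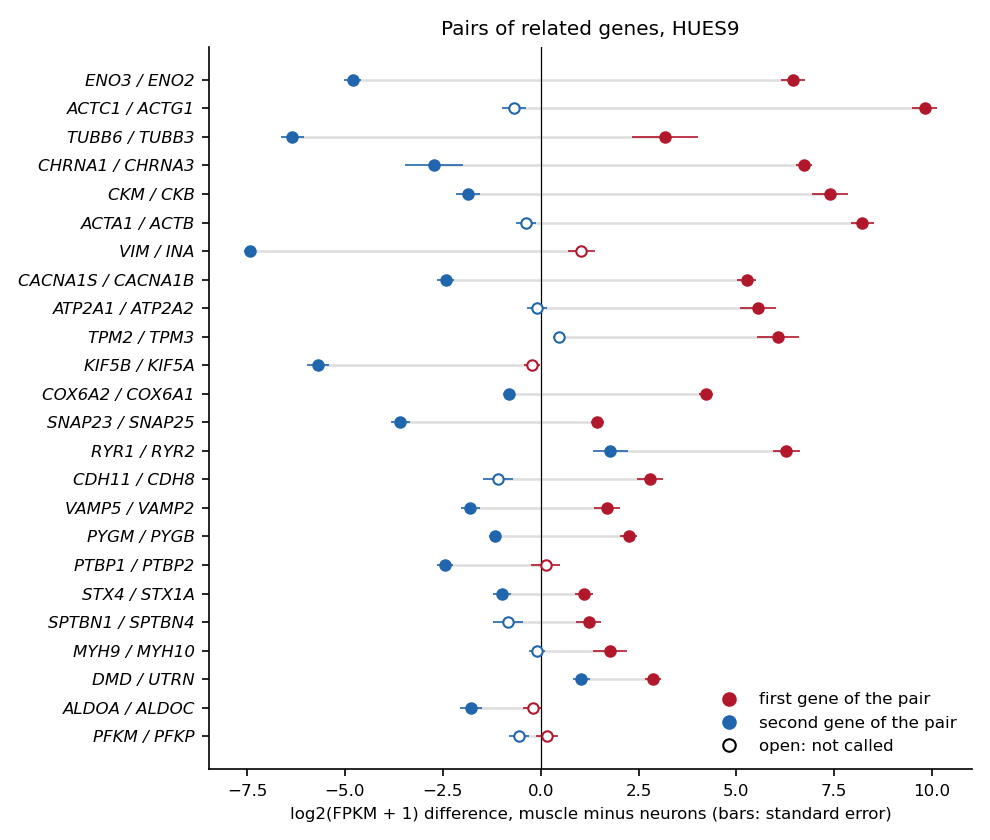
Differences in log2(FPKM + 1), muscle minus neurons, for 24 of the pairs of related genes with both members tested; red is the first gene of the pair, blue the second, bars are standard errors and open symbols were not called. ENO3 lies at 6.45 and ENO2 at -4.81, whereas both genes of the pair DMD and UTRN lie above 0.

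Within each state the libraries differed too, and these differences rest on 1 library each and carry no test. 220 of the 13186 genes differed by more than 1 on the log2 scale between the muscle days and 1499 between the neuron types, against 4333 between the means of muscle and neurons. The median over all these genes was 0.069 for day 50 minus day 40 and 0.008 for ventral minus dorsal neurons. List medians below are read beside those values. All 18 genes of excitation-contraction coupling were higher at day 50 than at day 40 (median 0.60), as were 16 of 17 thin filament genes (0.57) and 21 of 23 genes of the Z-disc, M-band and titin (0.52). The widest of the coupling genes was SLN, a small inhibitor of the calcium pump, at 13.97 FPKM at day 50 and 2.47 FPKM at day 40. Of 27 matrix and fibroblast genes 2 were higher at day 50 (median -0.58), and of 15 collagens 4 (-0.30). The widest of the matrix genes was THBS1, a matrix protein that binds cells and growth factors, at 111 FPKM at day 50 and 392 FPKM at day 40. Contractile and matrix genes therefore lay on opposite sides between the days. Proliferation genes hardly differed between the days (median 0.04) and all 18 were lower in ventral than in dorsal neurons (median -1.98). Dorsal interneuron factors had a median of -4.03 and ventral interneuron and motor neuron factors one of 2.23, ventral minus dorsal.

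**Figure D5:**
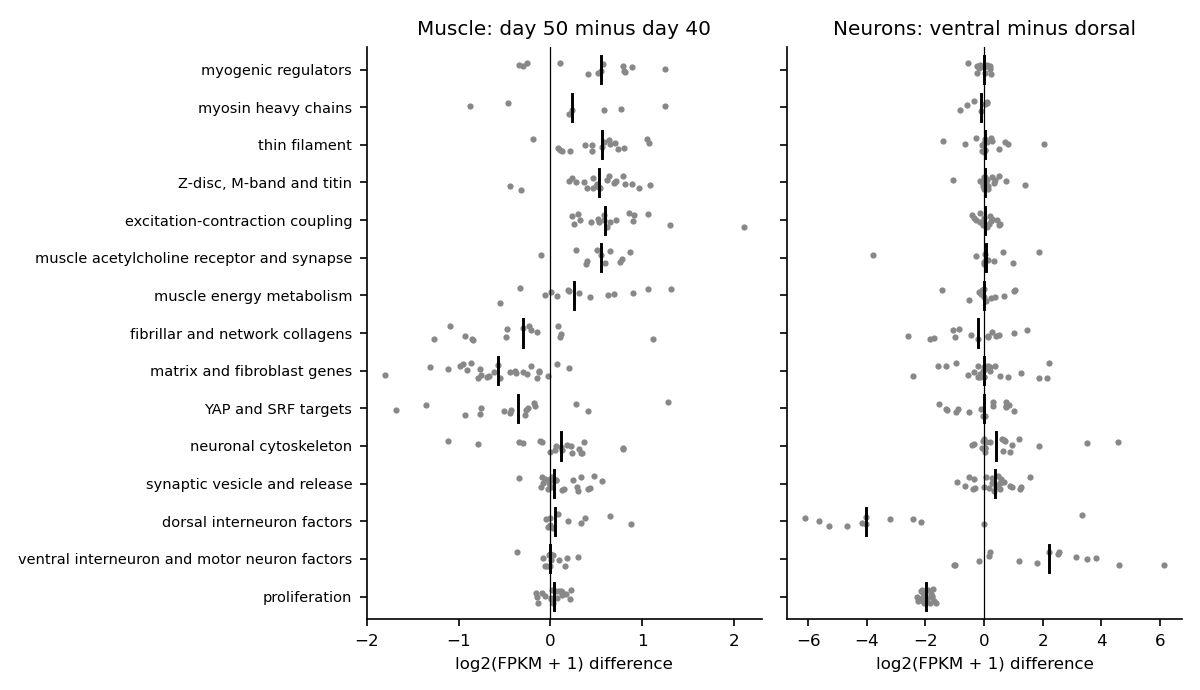
Differences in log2(FPKM + 1) between the libraries of a state for members of 15 gene lists, day 50 minus day 40 of muscle on the left and ventral minus dorsal neurons on the right; 1 point is a gene and the bar is the median of the list, and the axes have different ranges. Contractile lists lie right of 0 between the muscle days, matrix genes left of it, and dorsal and ventral factors part between the neuron types.

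H1 neurons were set beside the same muscle libraries, and the genes given here, apart from HOXD11 and STMN2, were chosen after their values were seen because they differed between the lines, so they do not stand for the other genes. HOXC10 had 0.163 and 0.162 FPKM in H1 ventral and dorsal neurons, against 23.2 and 51.6 FPKM in HUES9 ventral and dorsal neurons. HOXD9 had 0.109 and 0.0155 FPKM in H1 neurons, against 48.1 and 29.5 FPKM in HUES9 neurons, and HOXA10 had 0 and 0.160 FPKM in H1 neurons, against 17.1 and 25.5 FPKM in HUES9 neurons. These 3 genes were thus near 0 in H1 neurons, below muscle, and at or above the muscle level in HUES9 neurons, HOXD9 overlapping it. TGFB2 was called higher in muscle, at 7.39 and 7.62 FPKM against 3.45 and 1.84 FPKM in HUES9 neurons (1.26 ± 0.27, limma adjusted p = 0.0247). It had 81.3 and 17.4 FPKM in H1 ventral and dorsal neurons, above both muscle libraries. CDKN1A had 79.7 and 5.53 FPKM in H1 ventral and dorsal neurons, and its H1 ventral value lay between the muscle days. HOXD11 had 0.0171 and 0 FPKM in H1 ventral and dorsal neurons, below muscle as in HUES9, and STMN2 had 699 and 653 FPKM, above muscle as in HUES9.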

How the data were processed

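RNA sequencing of TruSeq Stranded mRNA libraries on a NovaSeq gave the values, per the labels. The authors deposited 1 table of FPKM for the series. Its reads went through HISAT2, Trimmomatic, Cufflinks and HTSeq on build hg18, per the submitters' processing notes, and versions and roles are not given in the sources used here. 1 further value column, whose name matched no listed sample, was not used. Groups came from the sample labels. limma 3.58.1 (R 4.3.3) was fitted to log2(FPKM + 1) of the 4 libraries with a mean per state and a trended prior; p-values were two-sided and Benjamini-Hochberg adjusted over 13186 genes, and genes with an adjusted p under 0.05 were called. The fit had 2 residual and 2.45 prior degrees of freedom and was tested on simulated data. The pseudocount of 1 FPKM understates differences of low genes. Estimated depth came from the steps between low FPKM values. Of 4051 values under 0.1 FPKM, scaled by that depth, 96.1% were whole multiples, within 2%, of the lowest value of their gene. That lowest value was taken as 1 fragment. For each of the 652 genes used it counts as a whole multiple by construction, so the share overstates the fit. Gene lists and pairs were fixed by name, and genes named are their members plus the 12 widest differences in each direction, some of which are not reported here; members and lists were chosen with earlier results of these data known. Alternatives changed the pseudocount, filter, scaling, libraries and trend. FPKM libraries are treated as separate samples, so p-values cover only the spread between them, which may be technical.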

Additional observations from a re-analysis of the deposited data

How the results depend on the processing

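The counts were 5483 genes called, 1774 higher and 3709 lower in muscle. Median-ratio size factors left 1983 lower and quantile normalization 2372. A filter of 1 FPKM in all 4 libraries left 905 higher, and a log2 difference of at least 1 as well as the adjusted p left 2276 lower; both of these alternatives were chosen after seeing the data. That filter kept 76 of the 179 named genes in the test and moved 44 of 58 counts of called list members by more than 1.5 times. The cause of the change with scaling was not tested, whereas the filter and the size rule test or keep fewer genes. Leaving out 1 library at a time gave 0 to 6664 genes called, 0 to 2080 higher and 0 to 4584 lower. The low ends came from leaving out a muscle library, where the remaining library is assumed to vary like the neurons. Without the day 40 library 0 genes were called, and without the day 50 library 262, of which 193 higher and 69 lower. Of 179 tested genes named in the text, 168 stayed on the same side of the threshold with median-ratio size factors, 6 lost their call and 5 gained one. Without a filter 18 lost it, over 17999 genes. With H1 neurons in place of HUES9 neurons, TGFB2 turned to -2.20 (limma adjusted p = 0.0651), and it was -0.35 when all 15 libraries shared the spread. No other gene named in the text that was called turned its direction under the alternatives run. No paired analysis was possible because the replicate numbers only name libraries: muscle days have no counterpart among neuron types. Depth limits values near 0, where 1 fragment makes a level.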

Other observations

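Among the 12 widest deficits in muscle were genes of neuronal membranes and of the neuronal cell surface that belong to none of the lists above. NSG1, an endosomal protein of neurons, had 0.50 and 0.505 FPKM in muscle at days 50 and 40, against 172 and 235 FPKM in ventral and dorsal neurons, and its relative NSG2 had 0.420 and 0.196 FPKM in muscle, against 134 and 153 FPKM in neurons. EEF1A2, the translation elongation factor that mature neurons and adult muscle use, had 1.27 and 0.536 FPKM in muscle, against 269 and 96.2 FPKM in neurons. TACR1, the receptor of substance P, had 0.0360 and 0.0231 FPKM in muscle, against 135 and 39.97 FPKM in HUES9 neurons, while H1 ventral and dorsal neurons had 5.15 and 7.40 FPKM. NCAN, a proteoglycan of neural tissue, had 0.0608 and 0.365 FPKM in muscle, against 128 and 56.1 FPKM in neurons. BEX1 and SEPTIN3 had at most 2.65 and 0.996 FPKM in muscle, and at least 262 and 125 FPKM in HUES9 neurons.

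By the families that the deposited table gives for transcription factors, 65 of 560 tested factors were higher in muscle (11.6%) and 191 lower (34.1%), where all genes had 13.5% and 28.1%. Of 28 homeobox factors 7 were higher and 15 lower, and of 125 zinc finger factors of the zf-C2H2 family 11 were higher and 52 lower. Of 15 ETS factors 6 were higher and 1 lower, and of 35 chromosome remodelling factors 0 were higher and 17 lower. The median difference was -0.58 for the zf-C2H2 family and -0.64 for the chromosome remodelling factors, beside -0.38 for all genes. These families are described by their counts for the values as listed, with no test of a family. With size factors the lower share of all genes was 15%, and the families were not counted under that scaling.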
